A study of Mus musculus with 12 samples.

Results

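The genes described here encode the lysosome's own machinery: the subunits of its proton pump, the vacuolar-type ATPase (V-ATPase), and 27 other lysosomal genes, namely hydrolases, membrane proteins, lipid-handling proteins and the transcription factors Tfeb, Tfe3 and Mitf. The rule that picks them uses symbols and no measured value: all loci whose symbol begins with Atp6v or Atp6ap plus a list of 27 symbols, and 46 genes were found among 12918 loci with a gene symbol. Of these, 19 were V-ATPase genes: 10 of the cytosolic V1 sector, 7 of the membrane-embedded V0 sector and 2 accessory subunits. The remaining 27 were 6 membrane proteins, 9 proteases, 6 glycosidases, 3 lipid-handling proteins and 3 transcription factors. A total of 43 passed the filter on low values (1 FPKM or more in 3 or more of the 12 libraries) and entered the tests. Atp6v1g3, Atp6v0d2 and Cd63 did not.

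RNA was sequenced from mouse splenic CD4 T cells in 4 groups of 3 libraries: KIKO naive, KI naive, KIKO activated and KI activated. The labels give the genotypes only as KI and KIKO, do not name the altered gene and give no strain or age, so the genotype could not be checked on a named target. The series title concerns a faulty proteasome in T cells, and the comparisons set KIKO against KI cells in each state. Activated cells had been stimulated for 16 h with antibodies to CD3 and CD28 on beads to mimic antigen and co-stimulation. Titles of KIKO activated libraries omit CD4, unlike those of the other groups. No label says that replicates are separate animals, so p-values measure only the spread between these samples, which may be technical.

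The lysosome digests proteins, lipids and sugar chains delivered by endocytosis and autophagy, and its hydrolases need the acid interior that the V-ATPase maintains. In that pump the V1 sector hydrolyses ATP and the V0 sector carries protons through the membrane. TFEB, TFE3 and MITF are related transcription factors that switch on many lysosomal genes through the CLEAR element, a DNA motif built around the letters CACGTG. In T cells the lysosome also takes part in nutrient sensing by mTORC1, which is recruited to its surface.

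Levels are FPKM, which are scaled to transcript length and to the mapped fragments, but a level here can rest on starts, ends or a single event, so its comparison between genes is approximate. How many reads each value rests on is unknown. The files listed 9771 to 11102 loci per library. KIKO naive 2 listed the fewest, and libraries of 1 group had a Pearson correlation across loci between 0.952 and 0.983. Of 11 CD4 T cell markers 9 were listed (Cd28 and Lck were not), and Cd4 lay between 86.4 and 221 FPKM in all 12 libraries. The summed level of these markers was 2220 to 2505 FPKM in KIKO naive libraries and 2864 to 3022 in KI naive libraries. It was 948 to 1596 in KIKO activated and 1599 to 1911 in KI activated libraries. Both KIKO replicate 2 libraries carried transcripts of other blood cells. S100a9, a neutrophil gene, stood at 110 FPKM in KIKO naive 2 and 92.8 in KIKO activated 2, against at most 3.69 in the other 10 libraries. Counts of called members that changed without these 2 libraries are given beside the main ones. In bulk RNA fewer cells of a type and less RNA per cell cannot be told apart. Differences are given in log2(FPKM + 1) ± SE, a scale that understates changes of low genes, and each adjusted p is that of limma's moderated test (two-sided), with Benjamini-Hochberg adjustment over the 9743 loci.

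Before stimulation the most abundant of these genes were Atp6v1d, Ctsd, Psap and Ctss. Ctsd encodes cathepsin D, the main aspartic protease of the lysosome, and averaged 149 ± 23.5 FPKM in KIKO naive and 129 ± 16.1 in KI naive cells (SD, n = 3 each). Psap, the precursor of the saposins that help degrade sphingolipids, averaged 125 ± 5.53 and Ctss, the cysteine protease cathepsin S, 101 ± 1.69 FPKM in KIKO naive cells. In KI naive cells Psap averaged 122 ± 8.58 and Ctss 116 ± 27.7 FPKM. The order of these 3 is not separated by their spread in KI naive cells. The subunits of the pump were listed at unequal levels: in KI naive cells Atp6v1a averaged 4.39 ± 0.233 FPKM, Atp6v1b2 16.3 ± 0.546 and Atp6v0c 41.2 ± 4.01. Atp6v0c has pseudogene copies that can share its reads, so its level is uncertain. Atp6v1d varied most, with 213, 95.4 and 238 FPKM in KIKO naive and 221, 105 and 117 FPKM in KI naive libraries. Its level came from its last exon in all 12 libraries, and its transcript start was listed in only 3. Isoforms known from specialised tissues were low or unlisted. Atp6v1g3 reached 0.119 FPKM in 1 library, Atp6v0d2 0.118 in 1 library, and Atp6v0a1 was at most 2.54 FPKM. Among the a subunits of V0, Atp6v0a2 averaged 24.8 ± 7.93 FPKM in KIKO naive and 22.2 ± 1.51 in KI naive cells. Tcirg1, which encodes the a3 subunit, stood at 9.67 to 15.0 FPKM in KIKO naive and 8.58 to 10.8 in KI naive libraries, and it did not pass the test in any comparison.

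Between the genotypes at rest, few of these genes differed. KIKO naive cells had higher Lgmn and Atp6v1h and lower Ctsb than KI naive cells, and the other 40 of 43 did not pass. The 3 called genes are 7.0% of the 43, against 10.4% of all loci tested (6.46% higher and 3.90% lower), so the share of calls lay near that of the whole table. Lgmn encodes legumain, an asparaginyl endopeptidase that processes cathepsins. It had 22.4, 18.3 and 14.9 FPKM in KIKO naive and 11.5, 10.1 and 12.1 FPKM in KI naive libraries, groups that did not overlap (log2 difference 0.66 ± 0.17, adjusted p = 0.0284). Atp6v1h encodes subunit H, which couples the activity of V1 to V0. It had 18.4, 23.0 and 18.4 FPKM in KIKO naive and 12.0, 12.0 and 14.3 in KI naive libraries (0.60 ± 0.13, adjusted p = 0.0164). Ctsb, the cysteine protease cathepsin B, had 14.7, 13.8 and 15.9 FPKM in KIKO naive and 18.4, 19.4 and 19.7 in KI naive libraries (-0.35 ± 0.09, adjusted p = 0.0340). None of these 3 calls held in every setting run. Lgmn did not pass without any 1 of the KI naive libraries or without KIKO naive 1 or 2 (adjusted p = 0.0582 to 0.0946), nor did Ctsb (0.0713 to 0.0977). Atp6v1h did not pass without KI naive 1 (0.0639), KI naive 2 (0.0573) or KIKO naive 2 (0.0532). Without both KIKO replicate 2 libraries Atp6v1h passed (adjusted p = 0.0292), while Lgmn (0.05 after rounding) and Ctsb (0.0910) did not, so 2 genes were higher and 0 lower. In that setting Atp6v0b, a proteolipid subunit of V0, passed as higher (0.50 ± 0.13, adjusted p = 0.0438), against an adjusted p of 0.0510 with all libraries. Of the 9597 loci tested there, 518 were higher and 333 lower.

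**Figure D1:**
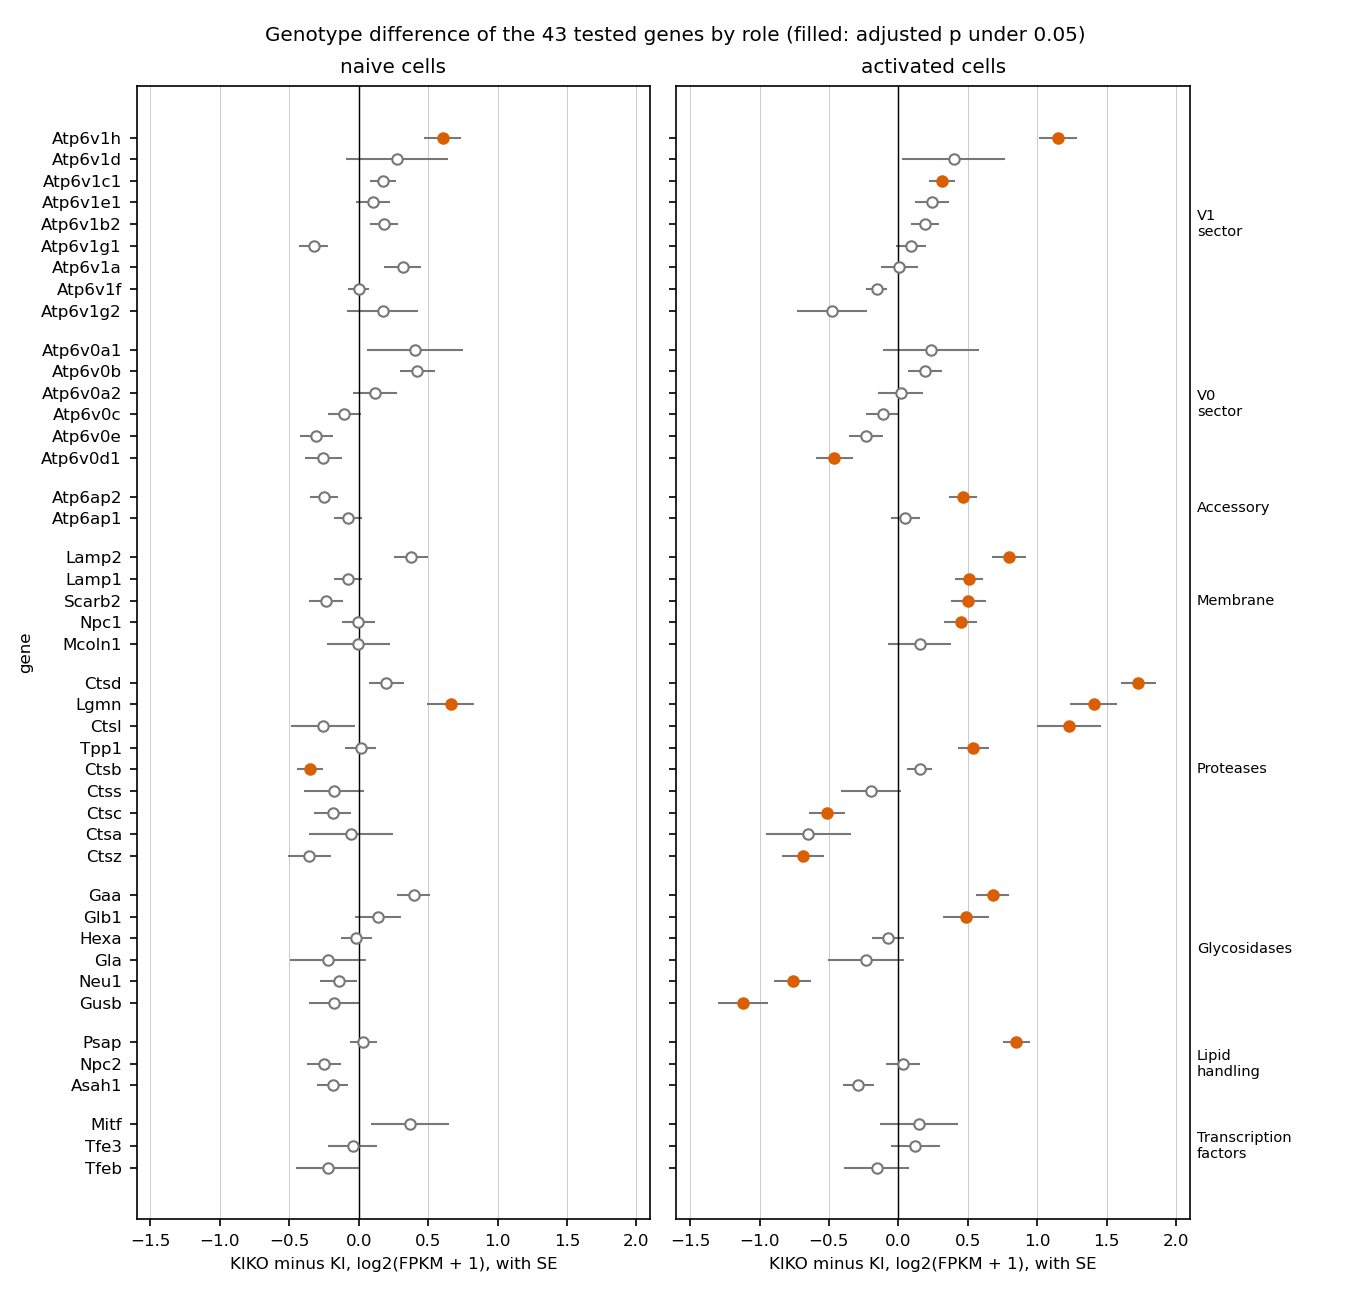
Difference between KIKO and KI cells in log2(FPKM + 1) with its standard error, for the 43 tested genes grouped by role, in naive cells (left) and activated cells (right). Filled points passed at an adjusted p under 0.05: 3 in naive and 19 in activated cells, where Ctsd lay farthest right at 1.73 and Gusb farthest left at -1.12.

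After 16 h of stimulation the genotypes differed in 19 of the 43 genes. KIKO activated cells had higher levels of 14, led by the proteases Ctsd, Lgmn and Ctsl and the pump subunit Atp6v1h, and lower levels of 5, led by the glycosidases Gusb and Neu1. The share called was 44.2%, close to the 40.0% of all loci tested. The share called higher was 14 of 43, with 20.7% of all loci called higher, and 5 of 43 were called lower, with 19.3% of all loci called lower. The median difference of the 43 was 0.15, against 0.04 over all loci. Without both KIKO replicate 2 libraries the counts were again 14 higher and 5 lower, of 42 tested, beside 2160 higher and 1972 lower of 9597 loci. Fewer pump genes than other lysosomal genes were called: 3 higher and 1 lower of 17 V-ATPase genes, and 11 higher and 4 lower of 26 others. The difference between these shares was not tested. With all libraries rescaled to an equal sum, which moves the median of all loci to 0.15, the V-ATPase counts were 5 higher and 0 lower.

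Among the proteases, 4 of 9 were higher in KIKO activated cells and 2 were lower. This and the other counts by role stand beside 20.7% of all loci called higher and 19.3% called lower, and no role was tested as a group. Ctsd had 121, 125 and 116 FPKM in KIKO activated and 35.9, 32.1 and 39.5 FPKM in KI activated libraries, a ratio of means of 3.37. The lowest KIKO library stood well above the highest KI library (log2 difference 1.73 ± 0.12, adjusted p = 1.76e-06). Lgmn had 9.94, 6.33 and 7.11 FPKM in KIKO activated and 2.53, 2.05 and 2.24 in KI activated libraries (1.41 ± 0.17, adjusted p = 5.44e-05). Ctsl encodes cathepsin L, a cysteine endopeptidase. It had 6.73, 4.83 and 10.2 FPKM in KIKO activated and 2.66, 2.29 and 2.27 in KI activated libraries (1.23 ± 0.23, adjusted p = 0.0012), so the KIKO libraries varied widely but all exceeded KI. This level sums 2 transcript ends. At 64511028 to 64512014 on chromosome 13 KIKO activated libraries had 6.69, 4.79 and 1.94 FPKM. KI activated libraries had 2.62, 2.25 and 0.275 there, so the groups overlapped. The end at 64512906 to 64513136 had 8.28 FPKM in KIKO activated 3 and 2.00 in KI activated 3. In the other activated libraries that end was at most 0.04 FPKM. Tpp1, a tripeptidyl peptidase, averaged 12.6 ± 1.46 FPKM in KIKO activated and 8.32 ± 0.826 in KI activated cells (0.54 ± 0.11, adjusted p = 0.00244). Ctsz and Ctsc were the 2 that were lower. Ctsz, a carboxypeptidase, had 25.9, 29.4 and 18.3 FPKM in KIKO activated and 40.0, 38.0 and 40.2 in KI activated libraries (-0.69 ± 0.15, adjusted p = 0.00359). Ctsc, the dipeptidyl peptidase that activates granzymes, had 10.1, 11.5 and 8.92 FPKM in KIKO activated and 15.6, 14.5 and 14.6 in KI activated libraries (-0.51 ± 0.13, adjusted p = 0.00766). Ctsb, Ctss and Ctsa did not pass. Ctsb averaged 22.1 ± 1.67 FPKM in KIKO activated and 19.8 ± 1.43 in KI activated cells. Ctsa, the protective protein of the galactosidase and neuraminidase complex, spread from 11.6 to 19.2 FPKM in KIKO activated and from 16.9 to 33.0 in KI activated libraries.

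**Figure D2:**
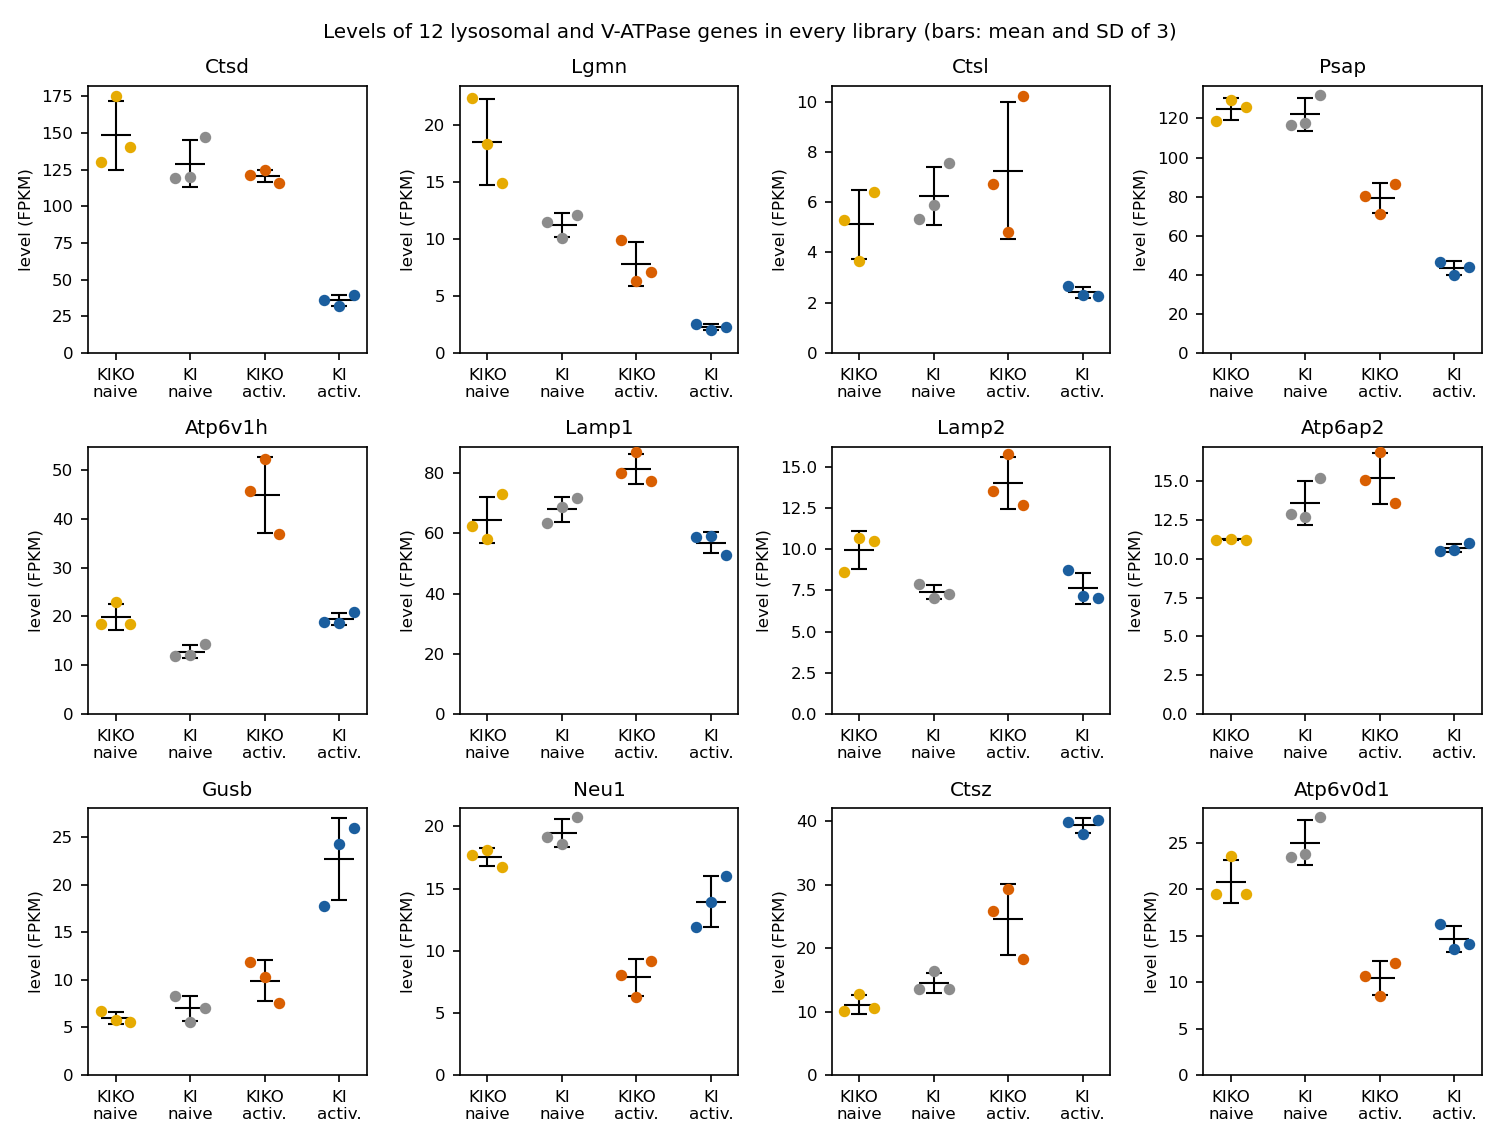
Level in FPKM (vertical axes, linear, from 0) of 12 genes in each of the 12 libraries, with the mean and SD of each group of 3. In activated cells the KIKO points of Ctsd, Lgmn, Ctsl, Psap, Atp6v1h, Lamp1, Lamp2 and Atp6ap2 lay above all KI points, and those of Gusb, Neu1, Ctsz and Atp6v0d1 lay below them.

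The glycosidases were split, with 2 of 6 higher and 2 lower in KIKO activated cells. Gaa, the acid alpha-glucosidase that degrades glycogen, had 16.0, 18.1 and 13.8 FPKM in KIKO activated and 9.05, 9.48 and 10.1 in KI activated libraries (0.68 ± 0.12, adjusted p = 7.15e-04). Glb1, the lysosomal beta-galactosidase, had 13.4, 13.4 and 12.5 FPKM in KIKO activated and 9.63, 8.51 and 9.03 in KI activated libraries (0.49 ± 0.16, adjusted p = 0.0328). Its groups did not overlap, but its call was lost in 9 of 21 settings, including the leaving out of KIKO activated 1, 2 or 3 or KI activated 2 or 3 (adjusted p = 0.0541 to 0.0977). Gusb encodes beta-glucuronidase and went the other way, with 11.9, 10.3 and 7.57 FPKM in KIKO activated and 17.8, 24.2 and 26.0 in KI activated libraries (-1.12 ± 0.18, adjusted p = 4.75e-04). Its mean was 2.29 times higher in KI activated cells. Neu1, the sialidase that works in a complex with the proteins of Glb1 and Ctsa, had 8.06, 6.29 and 9.19 FPKM in KIKO activated and 11.9, 13.9 and 16.0 in KI activated libraries (-0.76 ± 0.13, adjusted p = 7.51e-04). Glb1 and Neu1 were thus called in opposite directions. Hexa and Gla did not pass.

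Of the 5 membrane proteins tested, 4 were higher in KIKO activated cells and none was lower, with 20.7% of all loci called higher and 19.3% lower. Lamp1 and Lamp2 encode the heavily glycosylated proteins that line the lysosomal membrane. Lamp1 had 80.0, 86.9 and 77.3 FPKM in KIKO activated and 58.6, 59.2 and 52.8 in KI activated libraries (0.51 ± 0.10, adjusted p = 0.00151). Lamp2 had 13.5, 15.8 and 12.7 FPKM in KIKO activated and 8.73, 7.16 and 7.06 in KI activated libraries (0.80 ± 0.12, adjusted p = 2.98e-04). Neither gene's groups overlapped. Scarb2, the receptor that carries glucocerebrosidase to the lysosome, averaged 17.0 ± 1.92 FPKM in KIKO activated and 11.7 ± 1.81 in KI activated cells (0.50 ± 0.12, adjusted p = 0.00657). Npc1, the membrane protein that exports cholesterol, averaged 7.33 ± 0.669 FPKM in KIKO activated and 5.11 ± 0.461 in KI activated cells (0.45 ± 0.12, adjusted p = 0.00927). Mcoln1, a calcium channel of the lysosome, did not pass, with 9.48 to 12.3 FPKM in KIKO activated and 6.40 to 13.3 in KI activated libraries. Of the lipid-handling genes only Psap passed, with 80.1, 71.0 and 86.5 FPKM in KIKO activated and 46.8, 39.8 and 43.9 in KI activated libraries (0.85 ± 0.10, adjusted p = 3.89e-05). Npc2, the soluble partner of Npc1, averaged 42.7 ± 5.71 FPKM in KIKO activated and 41.5 ± 4.10 in KI activated cells, a difference of 0.04 ± 0.12 that did not pass. Asah1, acid ceramidase, had 4.20 to 4.89 FPKM in KIKO activated and 5.58 to 5.93 in KI activated libraries, with an adjusted p of 0.0572.

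In the pump, 2 of 9 V1 genes were higher in KIKO activated cells. Atp6v1h had 45.7, 52.3 and 36.9 FPKM in KIKO activated and 18.9, 18.7 and 20.9 in KI activated libraries (1.15 ± 0.13, adjusted p = 4.51e-05). All KIKO values exceeded all KI values. Atp6v1c1, the C subunit, which links V1 to V0, had 37.7, 40.1 and 32.3 FPKM in KIKO activated and 29.4, 29.0 and 29.1 in KI activated libraries (0.32 ± 0.09, adjusted p = 0.0168). That call was lost on leaving out KIKO activated 1 (adjusted p = 0.0602), KIKO activated 2 (0.0605) or KI activated 2 (0.0513). The catalytic A subunit, Atp6v1a, did not differ beyond its spread, with 9.42 ± 1.17 FPKM in KIKO activated and 9.34 ± 0.658 in KI activated cells. The B subunit gene Atp6v1b2 did not pass either (0.19 ± 0.10, adjusted p = 0.147). Of the 6 V0 genes tested none was higher. Atp6v0d1, the d subunit at the foot of the rotor, had 10.7, 8.50 and 12.1 FPKM in KIKO activated and 16.3, 13.6 and 14.1 in KI activated libraries (-0.46 ± 0.13, adjusted p = 0.0155). Its groups did not overlap, but it no longer passed with an equal sum (adjusted p = 0.0599), without KIKO activated 2 (0.0579) or without KI activated 1 (0.0579). Atp6ap2, also called the prorenin receptor and needed to assemble the pump, had 15.1, 16.9 and 13.6 FPKM in KIKO activated and 10.5, 10.6 and 11.0 in KI activated libraries (0.46 ± 0.10, adjusted p = 0.00313). The other accessory gene, Atp6ap1, averaged 21.4 ± 0.892 FPKM in KIKO activated and 20.7 ± 2.29 in KI activated cells and did not pass.

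None of the 3 transcription factor genes passed in the comparison of KIKO with KI activated cells. Tfe3 averaged 14.9 ± 2.29 FPKM in KIKO activated and 13.6 ± 1.22 in KI activated cells (0.12 ± 0.18, adjusted p = 0.628). Tfeb averaged 2.28 ± 0.992 FPKM in KIKO activated and 2.53 ± 0.023 in KI activated cells (-0.16 ± 0.23, adjusted p = 0.634). Mitf stayed under 1 FPKM in all activated libraries.

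The promoters of the called genes are shown because the CLEAR motif is the described route from these factors to lysosomal genes. RefSeq promoter windows (GRCm38.p6, 250 bases before to 50 after the start) were available for 37 of the 46 genes. The letters CACGTG, which read the same on both strands, occurred in windows of 13 of the 37 genes (35.1%), against 8.09% of 27025 genes and 7.15% of 32851 windows in the whole table. The longer form TCACGTG or its reverse complement CACGTGA, which contains the shorter one, occurred in 12 of the 37 (32.4%), against 4.29% of genes and 3.77% of windows. By call in activated cells, CACGTG was held by 6 of 11 genes higher in KIKO, 1 of 5 lower in KIKO and 6 of 19 not called. The genes higher in KIKO that held it were Ctsd, Lgmn, Ctsl, Lamp1, Gaa and Glb1, and the lower one was Atp6v0d1. Scarb2, Psap, Tpp1, Atp6ap2 and Lamp2 were higher in KIKO and did not hold it. The longer form was held by 5 of the 11 genes higher in KIKO, 1 of the 5 lower and 6 of the 19 not called. Ctsl held only the shorter form. The 250 bases before the start are printed for 4 higher genes that hold CACGTG, for Tpp1, which was higher and has none, and for Gusb, which was lower and has none. They read from the far end toward the start on the gene's own strand, with CACGTG in capitals. Their positions in GRCm38.p6 are chr7:142387828-142388077 on the minus strand for Ctsd, chr8:13158911-13159160 on the plus strand for Lamp1, chr11:119267713-119267962 on the plus strand for Gaa and chr9:114400828-114401077 on the plus strand for Glb1. Tpp1 lies at chr7:105752236-105752485 and Gusb at chr5:130003050-130003299, both on the minus strand.
Ctsd: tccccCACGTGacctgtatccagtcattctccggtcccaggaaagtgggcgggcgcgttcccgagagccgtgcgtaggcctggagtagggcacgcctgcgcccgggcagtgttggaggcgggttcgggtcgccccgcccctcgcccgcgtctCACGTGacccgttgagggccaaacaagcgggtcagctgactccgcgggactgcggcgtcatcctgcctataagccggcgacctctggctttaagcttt
Lamp1: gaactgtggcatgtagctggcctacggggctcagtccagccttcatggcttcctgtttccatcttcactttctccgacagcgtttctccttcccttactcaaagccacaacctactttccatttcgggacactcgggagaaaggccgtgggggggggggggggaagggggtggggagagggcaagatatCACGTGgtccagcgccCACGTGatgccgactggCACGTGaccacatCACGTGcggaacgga
Gaa: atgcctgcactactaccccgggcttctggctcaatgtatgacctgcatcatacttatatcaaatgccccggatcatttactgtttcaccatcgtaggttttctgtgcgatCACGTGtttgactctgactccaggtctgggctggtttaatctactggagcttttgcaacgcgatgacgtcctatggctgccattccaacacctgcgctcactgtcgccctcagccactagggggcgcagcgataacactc
Glb1: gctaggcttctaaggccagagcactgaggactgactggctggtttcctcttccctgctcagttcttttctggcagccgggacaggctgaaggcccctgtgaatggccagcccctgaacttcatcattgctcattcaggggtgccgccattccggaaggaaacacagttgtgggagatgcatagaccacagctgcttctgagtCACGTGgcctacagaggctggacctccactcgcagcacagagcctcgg
Tpp1: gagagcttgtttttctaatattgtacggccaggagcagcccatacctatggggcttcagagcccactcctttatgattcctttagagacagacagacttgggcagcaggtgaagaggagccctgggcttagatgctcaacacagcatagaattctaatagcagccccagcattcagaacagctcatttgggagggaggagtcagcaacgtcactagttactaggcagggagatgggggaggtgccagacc
Gusb: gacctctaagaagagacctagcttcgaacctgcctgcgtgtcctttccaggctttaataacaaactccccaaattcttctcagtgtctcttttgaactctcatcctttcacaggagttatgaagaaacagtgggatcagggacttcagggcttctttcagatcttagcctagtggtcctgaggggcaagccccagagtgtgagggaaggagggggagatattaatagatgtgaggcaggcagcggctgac
Lamp1 has 4 copies, beginning 61, 45, 28 and 15 bases before the start. Ctsd has 2, beginning 245 and 98 bases before it, and Gaa and Glb1 have 1 each, beginning 140 and 48 bases before it. All of these 8 copies are part of the longer form. A match is a run of letters, not a measured binding site, and a window without one says nothing of the factors.

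Stimulation moved most of these genes in both genotypes. In KIKO cells 18 of the 43 were higher and 15 lower after stimulation, 76.7% against 47.3% of all loci tested (25.1% higher and 22.2% lower). In KI cells 14 were higher and 16 lower, 69.8% against 61.7% of all loci (32.2% higher and 29.5% lower). Without both KIKO replicate 2 libraries the KIKO counts were 12 higher and 13 lower of 42, beside 1943 higher and 1620 lower of 9597 loci. With an equal sum the counts were 12 higher and 16 lower in KIKO cells and 11 higher and 20 lower in KI cells. Over the 9746 loci tested with an equal sum, 2024 were higher and 2663 lower in KIKO cells, and 2638 higher and 3355 lower in KI cells. Of the 17 V-ATPase genes 8 were higher and 3 lower in both genotypes, but in KI cells this became 5 higher and 6 lower with an equal sum or with quantile normalization, so the direction of the pump genes as a group depends on the scaling there. In KIKO cells the pump counts were 5 higher and 3 lower with an equal sum. Of the 26 other genes 10 were higher and 12 lower in KIKO cells, and 6 were higher and 13 lower in KI cells. Without both KIKO replicate 2 libraries these counts in KIKO cells were 5 higher and 10 lower, and those of the pump were 7 higher and 3 lower.

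Several genes moved alike in both genotypes. Atp6v1a rose to 9.42 ± 1.17 FPKM in KIKO activated cells, against 5.76 ± 1.11 in KIKO naive cells (0.63 ± 0.13, adjusted p = 0.00196), and to 9.34 ± 0.658 in KI activated cells, against 4.39 ± 0.233 in KI naive cells (0.94 ± 0.13, adjusted p = 5.71e-05). Atp6v0e, a small membrane subunit of V0, rose by 0.69 ± 0.12 in KIKO (adjusted p = 6.05e-04) and 0.62 ± 0.12 in KI cells (adjusted p = 7.20e-04). Atp6v0d1 fell by 0.94 ± 0.13 in KIKO (adjusted p = 1.56e-04) and by 0.74 ± 0.13 in KI cells (adjusted p = 4.12e-04). Atp6v1d fell to 19.3 to 43.0 FPKM in KIKO activated and 19.5 to 25.4 in KI activated libraries. By its summed transcript starts alone this fall did not pass, since most libraries list no start for it. The transcription factors changed in opposite directions. Tfe3 rose by 0.83 ± 0.18 in KIKO (adjusted p = 0.00218) and 0.67 ± 0.18 in KI cells (adjusted p = 0.00576), while Tfeb fell by 1.03 ± 0.23 in KIKO (adjusted p = 0.00333) and by 1.09 ± 0.23 in KI cells (adjusted p = 0.00141). Tfe3 had 5.53 to 9.48 FPKM in KIKO naive and 7.14 to 9.02 in KI naive libraries. Tfeb had 4.03 to 7.50 FPKM in KIKO naive and 5.71 to 7.62 in KI naive libraries. Mcoln1 and Ctss also fell in both genotypes, the fall of Mcoln1 in KIKO cells being lost without KIKO naive 3 (adjusted p = 0.0503).

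The response to stimulation differed between the genotypes for 11 of the 43 genes by the interaction test, 9 with a more positive response in KIKO cells and 2 with a more negative one. That is 25.6% of the 43, against 20.6% of all loci tested (8.99% positive and 11.6% negative). For the V-ATPase it was 1 of 17 genes, Atp6ap2. That count was 2 without both KIKO replicate 2 libraries, where Atp6v1h passed as well (0.53, adjusted p = 0.0446). The counts over all members were then 8 positive and 2 negative, beside 924 positive and 1154 negative of 9597 loci. The V-ATPase count was also 2 by median ratio, with summed starts, without KIKO naive 2 or without KIKO activated 3. It was 3 by quantiles or an equal sum, the added genes being Atp6v1h and Atp6v1g1. Ctsd had the largest interaction, 1.53 ± 0.18 (adjusted p = 3.20e-04). In KIKO cells it stood at 121 ± 4.29 FPKM after stimulation and 149 ± 23.5 before it (-0.29 ± 0.12, adjusted p = 0.0779). In KI cells it stood at 35.8 ± 3.73 FPKM after stimulation and 129 ± 16.1 before it (-1.82 ± 0.12, adjusted p = 2.49e-07). Psap and Scarb2 fell in both genotypes, and less in KIKO cells. Psap fell by 0.65 ± 0.10 in KIKO and by 1.47 ± 0.10 in KI cells (interaction 0.82 ± 0.14, adjusted p = 0.00214). Scarb2 fell by 0.46 ± 0.12 in KIKO and by 1.20 ± 0.12 in KI cells (interaction 0.74 ± 0.18, adjusted p = 0.0122). Ctsl did not pass in KIKO cells, with a difference of 0.41 ± 0.23, and fell by 1.08 ± 0.23 in KI cells (interaction 1.49 ± 0.33, adjusted p = 0.0081).

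Lamp1 and Atp6ap2 moved in opposite directions. Lamp1 rose to 81.4 ± 4.97 FPKM in KIKO activated cells, against 64.5 ± 7.61 in KIKO naive cells (0.34 ± 0.10, adjusted p = 0.0149), and fell to 56.9 ± 3.56 in KI activated cells, against 67.9 ± 4.11 in KI naive cells (-0.25 ± 0.10, adjusted p = 0.0425). Atp6ap2 rose to 15.2 ± 1.65 FPKM in KIKO activated cells, against 11.3 ± 0.0396 in KIKO naive cells (0.40 ± 0.10, adjusted p = 0.00655), and fell to 10.7 ± 0.274 in KI activated cells, against 13.6 ± 1.40 in KI naive cells (-0.32 ± 0.10, adjusted p = 0.0161). Their interactions were 0.59 ± 0.14 (adjusted p = 0.0123) and 0.71 ± 0.14 (adjusted p = 0.00516) and held in all 20 settings run. The separate rise and fall of Lamp1 were less firm. Its rise in KIKO cells was lost without both KIKO replicate 2 libraries (adjusted p = 0.144) or without either of them (0.0582 and 0.0550). Its fall in KI cells was lost in 8 of 21 settings, including the leaving out of any 1 of the KI activated libraries or of KI naive 2 or 3, KIKO activated 1 or KIKO naive 1 (adjusted p = 0.0542 to 0.145). The fall of Atp6ap2 in KI cells was lost without KI naive 3 (0.0702). Gusb rose in both genotypes, by 0.62 ± 0.18 in KIKO and 1.56 ± 0.18 in KI cells (interaction -0.94 ± 0.26, adjusted p = 0.0235). The rise in KIKO cells was lost without KIKO activated 1 (adjusted p = 0.0663). Neu1 fell by 1.08 ± 0.13 in KIKO and by 0.46 ± 0.13 in KI cells (interaction -0.62 ± 0.19, adjusted p = 0.0366). The interactions of Gusb, Neu1, Lgmn, Tpp1 and Ctsb were each lost on leaving out some single library. The other 6 held in every setting that tested them.

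**Figure D3:**
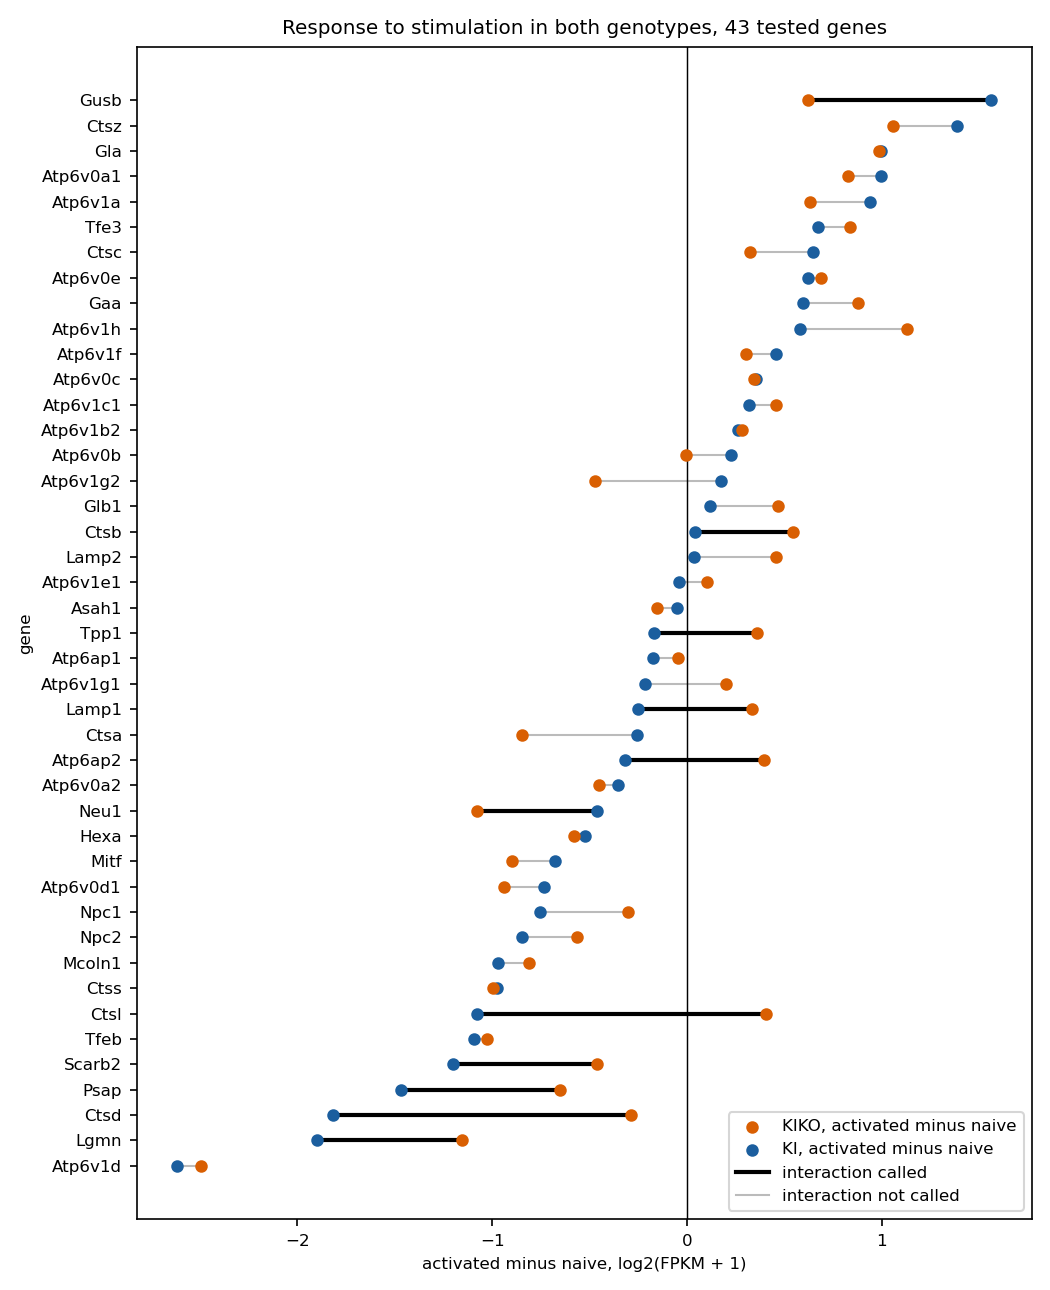
Difference between activated and naive cells in log2(FPKM + 1) for the 43 tested genes, in KIKO cells (orange) and KI cells (blue), ordered by the KI value. Black lines join the 11 genes whose interaction passed, and Ctsd has the longest of them, from -0.29 in KIKO to -1.82 in KI cells.

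The files give levels of single transcript starts, ends and introns. The following were chosen after their values were seen and carry no test. Lamp2 ends in alternative last exons. Of its 2 transcript ends, both on chromosome X on the minus strand (GRCm39), the one nearer the start, 37508384 to 37510728, had 10.1, 10.7 and 9.10 FPKM in KIKO activated and 5.42, 5.06 and 4.67 in KI activated libraries, and these groups did not overlap. The end farther from the start, 37493939 to 37494448, had 3.26, 4.20 and 3.11 FPKM in KIKO activated and 3.27, 1.75 and 2.38 in KI activated libraries, which did overlap. The nearer end held 73.9 ± 1.9% of the 2 in KIKO activated and 67.7 ± 6.1% in KI activated cells (SD, n = 3 each). Tfe3 has a longer and a shorter first exon that begin at the same base, 7628799 on chromosome X. The longer one, to 7629299, had 11.6 to 13.6 FPKM in KIKO activated and 12.2 to 13.9 in KI activated libraries, all above the 2.85 to 5.64 FPKM of KIKO naive and 1.01 to 6.89 FPKM of KI naive libraries. The shorter one, to 7628869, had 0.134 to 3.20 FPKM in KIKO activated libraries and at most 0.0461 in KI activated libraries, and 1.45 to 6.07 in KIKO naive and 0.246 to 7.40 in KI naive libraries. A Glb1 start at 114230527 to 114230625 on chromosome 9 was listed in all KIKO naive libraries (2.67, 4.14 and 3.37 FPKM) and in no KI naive library. After stimulation it was listed in no KIKO activated library and in KI activated 1 alone, at 0.808 FPKM. An intron of Neu1 at 35151804 to 35152979 on chromosome 17 was retained in 53.2 ± 12.7% of its level in KIKO activated and 38.3 ± 12.7% in KI activated cells, within the spread of the libraries. The spliced form had 2.745, 3.737 and 4.01 FPKM in KIKO activated and 7.904, 6.569 and 11.45 in KI activated libraries, without overlap. The retained form had 5.313, 2.555 and 4.531 FPKM in KIKO activated and 4.012, 7.321 and 4.59 in KI activated libraries, which overlapped. Psap has an exon of 9 bp that is skipped in most transcripts listed here: its inclusion was listed in only 2 libraries, at 0.835 and 0.309 FPKM, against skipping at 39.8 to 132 FPKM.

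**Figure D4:**
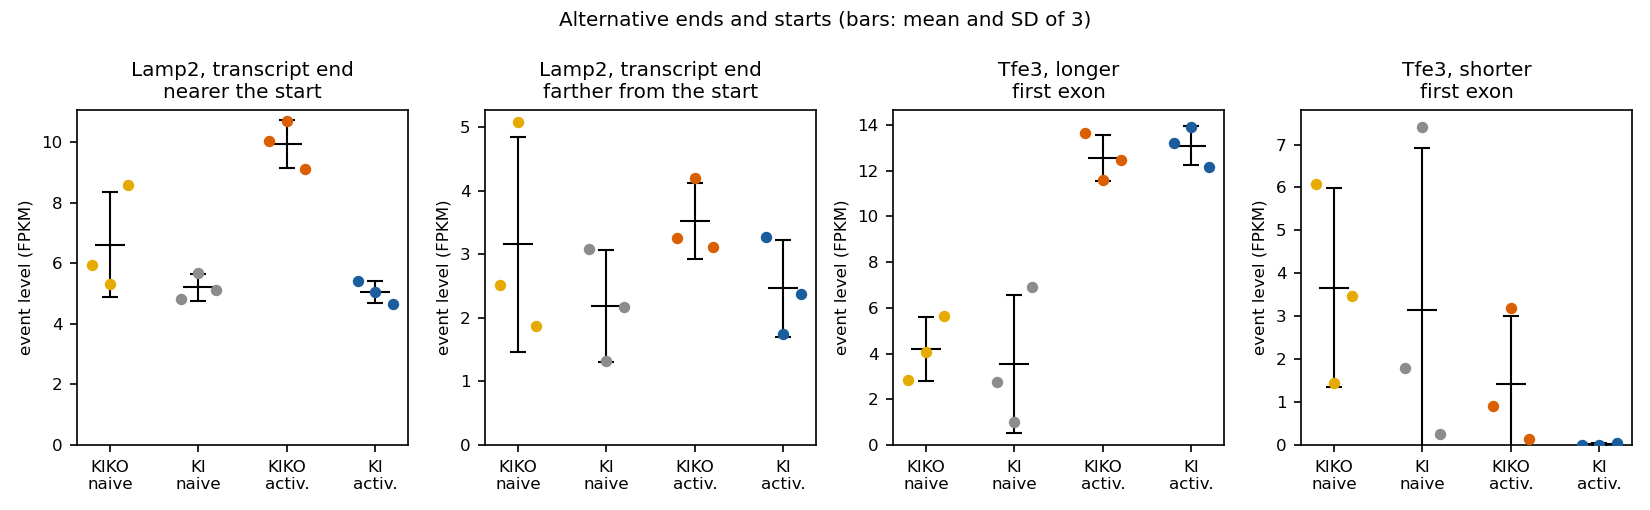
Level in FPKM of the 2 transcript ends of Lamp2 and of 2 first exons of Tfe3 in each library, with the mean and SD of each group of 3 (bars are cut at 0). The nearer Lamp2 end stood at 9.10 to 10.7 FPKM in KIKO activated libraries, above all KI activated ones, and the longer Tfe3 exon was higher in all activated than in all naive libraries.

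Markers of other blood cells were compared with the members. Cd63, a tetraspanin of lysosomes and secretory granules, was listed at 3.27 FPKM in KIKO naive 2, 0.854 in KIKO activated 2 and 0.078 in KIKO activated 1, and at 0 in the other 9 libraries. The first 2 are the libraries in which the summed level of 16 myeloid markers, 13 of them listed, was 255 and 209 FPKM, against 27.4 to 45.0 in the other 10. Lyz2 was at 26.1 and 22.2 FPKM there and below 1 elsewhere, and Itgam, Cd14 and C1qa were listed in no library. Gzma, a granzyme of killer cells, was at 8.01 and 7.57 FPKM there and 0 elsewhere. The summed level of 8 killer cell markers, 7 of them listed, was 5.87, 31.2 and 7.80 FPKM in KIKO activated and 1.46, 1.40 and 2.73 in KI activated libraries, so all KIKO activated libraries lay above all KI activated ones. In naive cells that sum was 11.3, 31.6 and 15.7 FPKM in KIKO and 18.7, 11.5 and 14.7 in KI libraries. The summed level of the CD8 T cell markers Cd8a and Cd8b1, nearly all Cd8b1, was 12.6, 16.1 and 12.6 FPKM in KIKO naive and 6.51, 7.38 and 8.12 in KI naive libraries. After stimulation it was 8.67 to 10.3 FPKM in KIKO and 11.1 to 13.0 in KI libraries. The part of these markers in the results was not tested. Ctss, which myeloid cells express strongly, was at 99.0 FPKM in KIKO naive 2, against 102 in KIKO naive 1 and 3. In KIKO activated 2 it was at 33.5 FPKM, against 55.1 and 67.9 in KIKO activated 1 and 3. Without the 2 libraries the log2 differences between KIKO and KI activated cells were 1.71 for Ctsd (1.73 with all libraries), 1.53 for Lgmn (1.41) and 0.92 for Psap (0.85). They were 0.71 for Lamp2 (0.80), 0.59 for Scarb2 (0.50), 0.51 for Npc1 (0.45) and -1.15 for Gusb (-1.12). Smaller values were also seen for Atp6v1h, 1.04 (1.15), Lamp1, 0.46 (0.51), and Atp6ap2, 0.39 (0.46). Those of Atp6v1c1, 0.25 (0.32), and Atp6v0d1, -0.33 (-0.46), shrank as well. Of 11 B cell markers 4 were listed, and Ms4a1, Pax5 and Cd74 were not listed in any library. Cd28 and Lck of T cells were not listed either, so a gene that is not listed is not shown to be low. The summed level of the B cell markers, nearly all Ighm, was 32.6 to 56.4 FPKM in KIKO activated and 102 to 113 in KI activated libraries, and its part in the results was not tested.

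**Figure D5:**
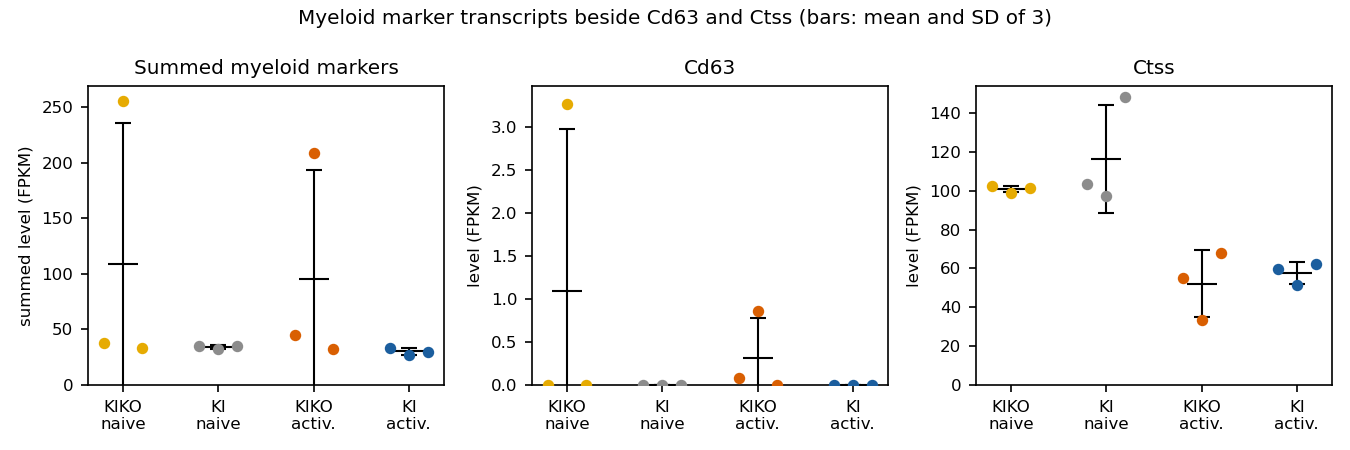
Summed level of the myeloid markers and levels of Cd63 and Ctss, in FPKM, in each library, with the mean and SD of each group of 3 (bars are cut at 0). KIKO naive 2 and KIKO activated 2 stand apart for the markers, at 255 and 209, and hold the highest Cd63, but not the highest Ctss.

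The other genes of the pathway were read from lists of related genes. Of 35 further lysosomal hydrolases tested, KIKO activated cells had 9 higher and 1 lower than KI activated cells. Dnase2a, the acid nuclease of the lysosome, was higher (1.83 ± 0.20, adjusted p = 2.85e-05), with 9.66 to 14.2 FPKM in KIKO activated and 2.53 to 2.87 in KI activated libraries. Man2b1, an alpha-mannosidase, was the one that was lower (-0.62 ± 0.15, adjusted p = 0.00573). Of 34 further membrane proteins 10 were higher and 3 lower. Abca2, a lysosomal lipid transporter, had 17.2 to 18.0 FPKM in KIKO activated and 7.04 to 8.58 in KI activated libraries (1.06 ± 0.10, adjusted p = 1.08e-05). Of 23 genes of mannose 6-phosphate sorting, which delivers hydrolases to the lysosome, 5 were higher and 3 lower. Ap1g1, a subunit of an adaptor that packs the sorting receptors, was higher (0.56 ± 0.10, adjusted p = 8.92e-04), and Ap1s1, another subunit of it, was lower (-0.95 ± 0.14, adjusted p = 2.04e-04). Of 9 genes of V-ATPase assembly and regulation 1 was higher, Dmxl1 (0.46 ± 0.15, adjusted p = 0.0278), and 1 lower, Ncoa7 (-0.80 ± 0.12, adjusted p = 2.81e-04). Each of these 4 shares, 28.6%, 38.2%, 34.8% and 22.2%, lay below the 40.0% of all loci called.

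In the Ragulator, Rag and mTORC1 list KIKO activated cells had 7 of 28 genes higher and 4 lower than KI activated cells (39.3% called, against 40.0% of all loci). Sesn2, a sestrin that restrains mTORC1 when leucine is scarce, had 38.6, 50.8 and 24.6 FPKM in KIKO activated and 4.61, 4.11 and 2.64 in KI activated libraries (2.99 ± 0.29, adjusted p = 1.26e-05). Lamtor1, the anchor of the Ragulator, was lower (-0.54 ± 0.07, adjusted p = 1.27e-04), while Rptor, the mTORC1 subunit that binds its substrates, was higher (1.01 ± 0.14, adjusted p = 1.35e-04). Fnip1, a partner of folliculin, was lower (-0.87 ± 0.12, adjusted p = 1.63e-04). Of 12 genes that act on TFEB and TFE3 or bind the same letters, 3 were higher and 5 lower (66.7% called, against 40.0% of all loci). Bhlhe40, a repressor of the family that binds CACGTG, had 18.0, 23.6 and 9.91 FPKM in KIKO activated and 52.1, 56.3 and 60.4 in KI activated libraries (-1.73 ± 0.35, adjusted p = 0.00181). Mnt, another repressor that binds these letters, went the other way and was higher (0.41 ± 0.11, adjusted p = 0.0115). Max (-0.62 ± 0.08, adjusted p = 9.62e-05) and Akt1 (-0.60 ± 0.11, adjusted p = 0.00105) were lower. Ppp3ca, a catalytic subunit of calcineurin, the phosphatase that lets TFEB enter the nucleus, was higher (0.95 ± 0.21, adjusted p = 0.00316), and Ywhae, a 14-3-3 protein of the family that holds it in the cytosol, was lower (-0.87 ± 0.11, adjusted p = 6.28e-05). Gsk3b, a kinase that keeps TFEB in the cytosol, was higher (0.31 ± 0.10, adjusted p = 0.0233). Of 23 genes of lysosome fusion and movement 6 were higher and 3 lower (39.1% called). In the lysosome damage list 14 of 21 genes were higher and 1, Chmp6, was lower (71.4% called, against 40.0% of all loci), and in naive cells 4 of 21 were higher and none was lower (19.0%, against 10.4% of all loci). The list was chosen with earlier results known, and its share was not tested. Gabarapl1, an ATG8 protein of autophagy, led it with 68.6, 85.2 and 57.8 FPKM in KIKO activated and 6.90, 7.06 and 6.34 in KI activated libraries (3.19 ± 0.15, adjusted p = 1.08e-07). It had 22.2, 31.7 and 24.5 FPKM in KIKO naive and 3.59, 2.84 and 3.22 in KI naive libraries (2.68 ± 0.15, adjusted p = 1.88e-06). The other 3 called in naive cells, Vcp, Plaa and Sqstm1, act on ubiquitin-tagged proteins throughout the cell as well as at damaged lysosomes.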

How the data were processed

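Poly(A) RNA from 15 ng of total RNA was made into stranded TaKaRa SMART-seq libraries, per the labels' protocols. FastQC 0.11.9, cutadapt 2.9 and HISAT2 2.2.0 are named in the submitters' processing notes, with both GRCm39 and mm10 as builds, and the coordinates in the files are GRCm39. Not given in the sources used here: how FPKM were computed. Deposited by the authors were FPKM per transcript event (start, end, exon or intron), 1 file per library, with absent events taken as 0 and duplicate lines dropped. FPKM hold no read numbers, so depth is unknown and no counting interval is given.

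The level of a locus was the largest of its summed starts, summed ends and largest event. A symbol with more than 1 locus kept its highest one on average, which set aside 2 second loci, of Ctsd and Glb1. All 46 loci shared exon or intron lengths with their GENCODE M21 gene. The shares matched were lowest for Psap (2 of 6 lengths), Lamp1 (4 of 11), Glb1 (8 of 19) and Ctsd (3 of 7). Ctsd shared more lengths with another gene of its chromosome, Chd2 (4), though 2 of 2 lengths in its strongest events matched Ctsd. For Psap 0 of 3 lengths in its strongest events matched. Lengths alone thus do not settle the identity of these 2 loci. limma 3.58.1 in R 4.3.3 was fitted to log2(FPKM + 1) of 9743 loci, with 1 mean per group over all 12 libraries, an intensity trend and 4 prior degrees of freedom. Tests were two-sided, adjusted by Benjamini-Hochberg over all loci within each of 5 comparisons and called under 0.05. The fit was tested on simulated data. With 3 against 3 libraries an exact permutation test cannot go below 0.1, so none is given for single genes. The alternatives were a pseudocount of 0.1, no filter, median-ratio, quantile or equal-sum scaling, summed starts only, a replicate block, each comparison's own groups and each library left out. Leaving out both KIKO replicate 2 libraries was added after seeing the data. All members could be named. Of each pathway list up to 4 called genes with the smallest p, and called genes going against the rest, could be named. The members and lists were chosen with earlier results of these data known.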

Additional observations from a re-analysis of the deposited data

Results flagged for a closer look

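The response to stimulation differed between KIKO and KI cells for 11 of the 43 genes tested, by the interaction test (limma, adjusted over 9743 loci). That is 25.6%, against 20.6% of all loci (8.99% positive and 11.6% negative). Each value is the KIKO response minus the KI response in log2(FPKM + 1). The values were 1.53 for Ctsd, 1.49 for Ctsl, 0.82 for Psap, 0.74 for Lgmn, 0.74 for Scarb2, 0.71 for Atp6ap2, 0.59 for Lamp1, 0.53 for Tpp1, 0.50 for Ctsb, -0.62 for Neu1 and -0.94 for Gusb. Of these, Ctsb, Tpp1 and Neu1 did not pass without both KIKO replicate 2 libraries, which carried myeloid transcripts (adjusted p = 0.0503 for Ctsb, 0.104 for Tpp1 and 0.0880 for Neu1). On leaving out single libraries, Ctsb was lost without KIKO activated 1 or KI activated 2 (adjusted p = 0.0526 and 0.0561), and Gusb without KIKO naive 1, KI naive 2 or KI activated 2 or 3 (0.0506 to 0.0630). Lgmn was lost without 9 of the 12 libraries taken singly (0.0555 to 0.0986), Tpp1 without 8 (0.0516 to 0.0898) and Neu1 without 9 (0.0520 to 0.0922). Groups of 3 libraries were not examined for single outlying values.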

How the results depend on the processing

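No gene called in any of the 5 comparisons changed direction in any setting run. Of the genes called, 0 of 3 were called in every setting for KIKO against KI naive cells, 16 of 19 for KIKO against KI activated cells, 19 of 33 for stimulation in KIKO cells, 23 of 30 for stimulation in KI cells and 6 of 11 for the interaction. In naive cells 2 genes were called higher in KIKO with all libraries as deposited, against 1 with the 2 groups fitted alone, 1 with no filter and 5 with an equal sum. There 1 gene was called lower, against 0 without both KIKO replicate 2 libraries, 0 with the 2 groups fitted alone, 0 with an equal sum, 2 by median ratio, 3 by quantiles and 2 with summed starts. The interaction had 2 genes with a negative value, against 1 with no filter. Leaving out each library in turn gave 0 to 4 higher and 0 to 1 lower in naive cells, 12 to 14 higher and 4 to 6 lower in activated cells, 13 to 19 higher and 10 to 15 lower for stimulation in KIKO cells, 11 to 14 higher and 14 to 17 lower for stimulation in KI cells, and 6 to 9 positive and 0 to 2 negative interactions. Same-numbered libraries correlated between -0.0361 and 0.121 in their deviations from the group means. Between KI naive and KI activated libraries these values were 0.0555, 0.0792 and 0.102, against at most 0.00234 for unlike numbers. Between KIKO naive and KIKO activated libraries they were -0.00438, 0.0939 and 0.035, against at most 0.0662 for unlike numbers. The labels do not say whether same-numbered libraries share a source, and the main fit took no pairs. With the replicate block, which joins equal numbers across both genotypes, the naive comparison had 2 higher and 0 lower, and the activated one 14 higher and 5 lower. For stimulation the block gave 17 higher and 15 lower in KIKO cells and 13 higher and 15 lower in KI cells. It gave 9 positive and 2 negative interactions. Over all loci the share of naive calls that were higher was 62.3%, against 44.2% by median ratio, 49.4% by quantiles and 81.0% by an equal sum. The naive calls over all loci numbered 629 higher and 380 lower, against 388 and 298 with the 2 groups fitted alone, 1123 and 263 with an equal sum, 307 and 186 without KI naive 1, 359 and 198 without KI naive 2, 362 and 169 without KI naive 3 and 406 and 309 without KIKO naive 3. In activated cells the share that were higher was 51.8%, against 64.9% with an equal sum. An equal sum moved the median of all loci to 0.13 in naive and 0.15 in activated cells and to -0.13 for stimulation in KI cells. The summed level over all loci, which that setting makes equal, was 307122 to 320055 FPKM in KIKO naive and 323540 to 357099 in KI naive libraries. It was 327187 to 344365 FPKM in KIKO activated and 364049 to 380944 in KI activated libraries. The cause of the unequal sums and of the changed counts was not tested. Unknown depth limits what can be said of genes near 1 FPKM, such as Gla, Mitf and Atp6v0a1.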
